A study of Mus musculus with 12 samples.

Results

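The 9 genes described here are early regulators of red cell formation and the carbonic anhydrases that red cell precursors express: the transcription factors Gata1, Tal1, Klf1 and Gfi1b, the receptors Epor and Tfrc, the nuclear protein gene Hemgn, and the enzymes Car1 and Car2. They were chosen by symbol among 19938 genes of a microarray value table, with the row of highest mean taken per gene. All 9 were measured, each by 1 row.

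GATA1 and TAL1 bind DNA together in a complex that switches on erythroid genes, KLF1 acts on many of the same targets, and GFI1B is a repressor needed in the erythroid and megakaryocyte lineages. Erythropoietin, a hormone of the kidney, binds EPOR on erythroid progenitors and signals through JAK2 and STAT5, and the transferrin receptor TFRC brings in the iron for haem. Carbonic anhydrases interconvert carbon dioxide and bicarbonate, and CAR1 and CAR2 are the abundant cytosolic forms of red cells.

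RNA came from whole marrow flushed from long bones of B6 mice at 16 days of age, on 12 arrays in 4 groups of 3. Irradiated PTH mice were given 310 cGy of sub-lethal radiation in each of 2 fractions when 10 days old, and then parathyroid hormone (PTH), which stimulates bone formation when given intermittently, for 5 days (day 11 to day 15). Irradiated vehicle mice received the same radiation and vehicle over the same days. Nonirradiated PTH mice and nonirradiated vehicle mice received PTH or vehicle over those days with no radiation. Whether a group holds separate mice is not stated in the labels, so the p-values reflect only how these samples spread. By Xist (below), arrays of each irradiated group differed in sex, so they did not all come from the same animals. Their spread is therefore not wholly technical, whereas that of the nonirradiated groups may be.

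All values are log2 expression, on which a difference of 1 is a doubling, and with 3 arrays a group their precision is limited. Over genes, the median standard error (SE) of a difference between 2 groups was 0.166 for the whole table and 0.204 over the 9 members. Two-sided limma tests were adjusted by Benjamini-Hochberg over all 19938 genes, and a gene was called at an adjusted p under 0.05. Irradiated PTH replicate 3 and nonirradiated vehicle replicate 3 had narrow interquartile ranges over all 35556 rows of the value table. These were 2.86 to 2.88, against 3.13 to 3.25 on the other 10 arrays. By Xist, which is transcribed from the silent X chromosome of females, the female pattern was on 1 of 3 irradiated PTH arrays, 1 of 3 irradiated vehicle arrays, 3 of 3 nonirradiated PTH arrays and 0 of 3 nonirradiated vehicle arrays. PTH and sex therefore cannot be told apart in nonirradiated mice. Irradiated PTH replicate 3 also had the lowest mean over 13 housekeeping genes, 10.95 against 11.23 to 11.52 elsewhere, and over 20 late erythroid genes, 10.39 against 10.70 to 11.32. Erythroid marker levels in the irradiated PTH, irradiated vehicle, nonirradiated PTH and nonirradiated vehicle groups were 11.91 ± 0.644, 12.01 ± 0.262, 11.90 ± 0.152 and 11.93 ± 0.205 for Alas2, the first enzyme of erythroid haem synthesis (SD, n = 3 each). Slc4a1, the anion exchanger of the red cell membrane, had 12.33 ± 0.731, 12.58 ± 0.216, 12.41 ± 0.109 and 12.27 ± 0.358 in the same groups.

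Start-site sequence is shown for the member that rose, Tal1, for the receptor Epor, and for Cish, a feedback inhibitor of receptor signalling that rose with irradiation. GATA factors bind GATA-containing letters, and STAT5 binds the palindrome TTCNNNGAA. Each window runs 5′ to 3′ from 250 bases before to 50 bases after a RefSeq start on GRCm38.p6. The Tal1 window shown, the 1 of 2 with a match, is chr4:115056176-115056475 on the + strand, the Epor window is chr9:21963527-21963826 on the − strand and the Cish window is chr9:107296409-107296708 on the + strand. Capitals mark AGATAA or TGATAA on either strand in Tal1 and Epor, and TTCNNNGAA in Cish.
Tal1: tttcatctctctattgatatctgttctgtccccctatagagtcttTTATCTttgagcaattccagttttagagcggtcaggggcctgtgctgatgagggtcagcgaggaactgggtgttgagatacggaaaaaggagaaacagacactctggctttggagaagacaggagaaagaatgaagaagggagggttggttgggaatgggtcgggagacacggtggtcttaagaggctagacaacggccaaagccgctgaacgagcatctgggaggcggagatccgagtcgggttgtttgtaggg
Epor: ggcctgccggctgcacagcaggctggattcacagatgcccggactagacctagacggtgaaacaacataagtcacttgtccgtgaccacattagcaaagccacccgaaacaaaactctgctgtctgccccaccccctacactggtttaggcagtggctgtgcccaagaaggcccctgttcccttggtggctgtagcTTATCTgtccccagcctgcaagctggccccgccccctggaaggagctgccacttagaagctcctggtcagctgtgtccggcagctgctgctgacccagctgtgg
Cish: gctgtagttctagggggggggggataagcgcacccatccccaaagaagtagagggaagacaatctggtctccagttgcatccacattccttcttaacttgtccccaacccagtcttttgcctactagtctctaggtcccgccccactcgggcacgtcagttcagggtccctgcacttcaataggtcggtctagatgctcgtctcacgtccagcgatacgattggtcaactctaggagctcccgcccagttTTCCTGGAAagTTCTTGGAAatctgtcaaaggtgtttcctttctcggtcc
The table held 9 windows for 7 of the members, and Car1 and Car2 were not among them. The GATA letters (AGATAA or TGATAA, both strands, where neighbouring matches may share a base) were in 5 of those 9 windows, 1 of the 2 windows of Tal1 and those of Klf1, Gfi1b and Epor with 1 match each and that of Hemgn with 2. The other Tal1 window, at chr4:115057561-115057860 on the + strand, had 0 matches, as had both windows of Tfrc and that of Gata1. They were in 6115 of 32851 promoters of the same length, or 18.6%. The letters TTCNNNGAA were in 8.30% of all promoters, 2 times in the Cish window, and in 1 member window, that of Gfi1b. A match of letters is a description of the sequence and not a measured binding site.

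Car1 was lower and Tal1 was higher after irradiation, and the other 7 members did not pass the test in any comparison. With PTH, 1 of the 9 members was called, Car1, against 2.43% of all genes called and 1.74% called lower. With vehicle, again 1 of 9 was called, Car1, against 2.22% of all genes called and 1.01% called lower. Averaged over both treatments, 2 of 9 were called, Car1 lower and Tal1 higher, against 6.1% of all genes called, made up of 3.59% lower and 2.51% higher. The median difference over the 9 members was -0.00 with PTH, 0.22 with vehicle and 0.14 averaged, against 0.01, -0.03 and -0.01 over all genes. The same shares and medians over all genes are the background for the counts of the gene lists given below. In whole marrow, a change in the number of cells of a type and a change in RNA per cell cannot be told apart.

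**Figure D1:**
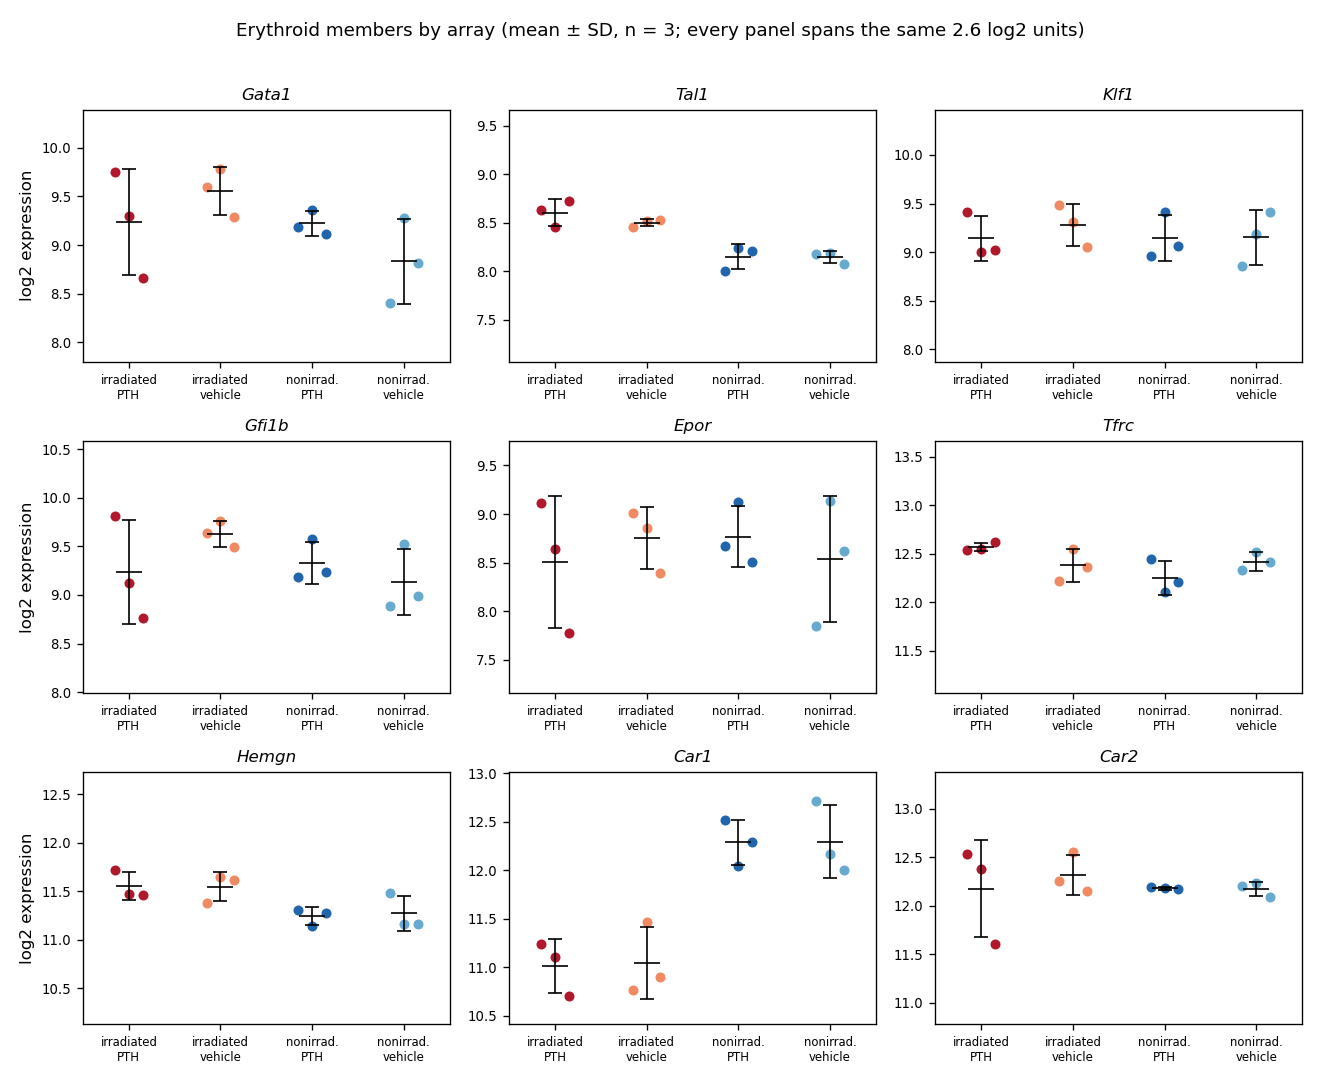
Log2 expression of the 9 members on each array (points, replicates 1 to 3 from left to right within a group) with the group mean and SD (black, n = 3). Car1 lay between 10.71 and 11.47 on the 6 irradiated arrays and between 12.01 and 12.72 on the 6 nonirradiated arrays, and Tal1 lay higher on every irradiated array than on any nonirradiated array.

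Tal1 encodes a basic helix-loop-helix factor required to specify blood cells and to complete red cell maturation. It had 8.63, 8.46 and 8.73 on the irradiated PTH arrays, 8.46, 8.52 and 8.53 on the irradiated vehicle arrays, 8.003, 8.24 and 8.21 on the nonirradiated PTH arrays, and 8.18, 8.19 and 8.07 on the nonirradiated vehicle arrays. All 6 irradiated arrays were above all 6 nonirradiated arrays, while the PTH and vehicle arrays overlapped within each irradiation state. Such a separation, in either direction, held for 4.49% of all genes. Averaged over both treatments Tal1 rose by 0.40 (SE 0.0811), or 1.32-fold, with an adjusted p of 0.0106 by limma. The separate differences were 0.45 with PTH (SE 0.115, limma adjusted p = 0.0669) and 0.36 with vehicle (SE 0.115, limma adjusted p = 0.164), neither of which passed. The averaged call was kept when any 1 array was left out and was lost when arrays were centred on housekeeping genes, where the difference was 0.39 and the limma adjusted p 0.123. Of the 9 members, Tal1 varied least within groups, with a residual SD of 0.101 at the 5.34 percentile of all genes.

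Gata1, the zinc finger factor whose loss stops red cell maturation, had 9.75, 9.30 and 8.66 on the irradiated PTH arrays, 9.59, 9.78 and 9.29 on the irradiated vehicle arrays, 9.19, 9.36 and 9.11 on the nonirradiated PTH arrays, and 8.41, 9.28 and 8.81 on the nonirradiated vehicle arrays. With vehicle, the irradiated arrays lay just above the nonirradiated ones, with a difference of 0.73 (SE 0.268, limma adjusted p = 0.241). With PTH the groups overlapped, with a difference of 0.02 (SE 0.268, limma adjusted p = 0.988). The spread within groups was wide, and irradiated PTH replicate 3 and nonirradiated vehicle replicate 1 were the low arrays of their groups. The averaged difference was 0.37 (SE 0.190, limma adjusted p = 0.359). With arrays weighted by their quality it was 0.49 (limma adjusted p = 0.0348).

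Gfi1b, a zinc finger repressor that binds many GATA1 target genes, had 9.82, 9.12 and 8.76 on the irradiated PTH arrays, 9.64, 9.76 and 9.49 on the irradiated vehicle arrays, 9.18, 9.57 and 9.23 on the nonirradiated PTH arrays, and 8.89, 9.52 and 8.99 on the nonirradiated vehicle arrays. Every irradiated group overlapped its nonirradiated counterpart, and the same 2 arrays as for Gata1 were the lowest of their groups. The irradiation difference was -0.10 with PTH (SE 0.247, limma adjusted p = 0.906) and 0.50 with vehicle (SE 0.247, limma adjusted p = 0.419).

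Klf1, a zinc finger activator of adult globin and other red cell genes, had 9.41, 8.997 and 9.02 on the irradiated PTH arrays, 9.48, 9.31 and 9.05 on the irradiated vehicle arrays, 8.96, 9.41 and 9.06 on the nonirradiated PTH arrays, and 8.85, 9.19 and 9.41 on the nonirradiated vehicle arrays. The 4 groups covered almost the same range. The averaged irradiation difference was 0.06, with a 95% interval of -0.22 to 0.35 and a limma adjusted p of 0.895.

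GATA1, TAL1 and GFI1B are also factors of megakaryocytes, and GATA1 of eosinophils and mast cells. Of 8 measured megakaryocyte and platelet markers, 5 fell and 0 rose with irradiation averaged over both treatments, with a median of -0.59, against -0.01 over all genes. The count was 3 without irradiated vehicle replicate 3 and 3 to 7 over the 21 alternatives. Their mean level was 8.34 to 8.85 on irradiated arrays and 8.94 to 9.56 on nonirradiated arrays. Mmrn1, a platelet granule protein, fell by 1.42 (SE 0.129, limma adjusted p = 4.12e-05), and Clec1b, the podoplanin receptor of platelets, fell by 1.04 (SE 0.123, limma adjusted p = 0.000312). Tal1 and these markers differed in opposite directions. Of 12 eosinophil, basophil and mast cell markers, 1 rose and 1 fell, and their mean level was 7.77 to 8.14 on irradiated arrays and 7.57 to 7.999 on nonirradiated arrays. The part of these lineages in the values of Gata1, Tal1 and Gfi1b was not tested.

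Among 18 other erythroid transcription factors and cofactors, 2 fell with irradiation averaged over both treatments and 0 rose, with a median of -0.07. Both are genes of early progenitors. Kit, the stem cell factor receptor (grouped here with the factors), had 8.05, 8.13 and 7.47 on the irradiated PTH arrays, 8.68, 8.20 and 7.87 on the irradiated vehicle arrays, 9.14, 9.32 and 9.003 on the nonirradiated PTH arrays, and 8.95, 9.28 and 8.70 on the nonirradiated vehicle arrays. Every irradiated array was below every nonirradiated array, with the closest 2 arrays at 8.68 and 8.70, and the averaged difference was -0.9996 (SE 0.164, limma adjusted p = 0.00279). Myb, a factor of immature blood cells that is shut down as they mature, had 9.05, 9.37 and 9.18 on the irradiated PTH arrays, 9.68, 9.08 and 8.98 on the irradiated vehicle arrays, 10.42, 10.62 and 10.39 on the nonirradiated PTH arrays, and 10.01, 10.48 and 10.61 on the nonirradiated vehicle arrays. Myb was lower on all irradiated arrays, with an averaged difference of -1.20 (SE 0.142, limma adjusted p = 0.000315). Both calls were kept in all 21 alternatives, with adjusted p up to 0.0110 for Kit and 0.00171 for Myb. Gata2, a factor of progenitors that precedes GATA1, had 6.71 ± 0.165, 6.68 ± 0.322, 6.69 ± 0.113 and 6.81 ± 0.146 in the irradiated PTH, irradiated vehicle, nonirradiated PTH and nonirradiated vehicle groups (SD, n = 3 each) and was not called. Kit and Myb are also expressed in stem cells and in B cell progenitors. Of 9 stem and progenitor markers 3 fell and 0 rose (2 to 5 fell over the 21 alternatives). Mean levels of these markers were 6.75 to 7.31 on irradiated arrays and 7.20 to 7.51 on nonirradiated arrays. Of 11 B-lineage markers 10 fell and 0 rose, with mean levels of 6.92 to 7.69 on irradiated arrays and 9.40 to 9.81 on nonirradiated arrays, and their part in the lower Kit and Myb was not tested.

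Epor had 9.11, 8.64 and 7.77 on the irradiated PTH arrays, 9.01, 8.86 and 8.39 on the irradiated vehicle arrays, 8.68, 9.12 and 8.51 on the nonirradiated PTH arrays, and 7.85, 9.14 and 8.62 on the nonirradiated vehicle arrays. All 4 groups overlapped. The averaged irradiation difference was -0.02, with a 95% interval of -0.58 to 0.53 and a limma adjusted p of 0.982. Differences within that interval, in either direction, are not excluded. Its residual SD of 0.521 was at the 96.3 percentile of all genes, the widest of the 9 members. The low arrays were irradiated PTH replicate 3 and nonirradiated vehicle replicate 1.

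Of 14 measured genes listed for erythropoietin receptor signalling, 7 rose and 1 fell averaged over both treatments, 5 lay below 0, and the median was 0.41. Over all genes 2.51% were called higher and 3.59% lower, with a median of -0.01. The list holds the ligand gene Epo and the stem cell factor gene Kitl beside intracellular and target genes, and Lyn was not analysed here. With PTH 4 rose and 0 fell, but 1 rose without nonirradiated PTH replicate 1 or 3, without irradiated PTH replicate 1 or in the fit of only the groups compared, 2 without nonirradiated PTH replicate 2, 6 without irradiated PTH replicate 3 and 7 without both narrow-range arrays. With vehicle 5 rose and 0 fell, but 3 rose with sex as a term, without nonirradiated vehicle replicate 1 or 3, without nonirradiated PTH replicate 1 or without any 1 irradiated vehicle array. In the other alternatives 4 to 6 rose, with 6 under array weights, under housekeeping centring and without both narrow-range arrays. The mean level of the list was 7.61 to 8.13 on irradiated arrays and 7.22 to 7.52 on nonirradiated arrays. Without both narrow-range arrays the averaged counts were 7 rising and 0 falling, and with sex as a term 6 and 0. Several of these genes respond to other cytokines that signal through STAT factors, so the list is not specific to erythroid cells.

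Socs2, a STAT5-induced inhibitor of cytokine and growth hormone receptors, had 8.53, 8.38 and 8.76 on the irradiated PTH arrays, 8.52, 8.48 and 8.77 on the irradiated vehicle arrays, 7.29, 6.94 and 7.31 on the nonirradiated PTH arrays, and 7.25, 7.19 and 7.48 on the nonirradiated vehicle arrays. The irradiated arrays were all higher and lay close together, and the averaged rise was 1.33 (SE 0.107, limma adjusted p = 1.96e-05), or 2.51-fold. Cish, whose start-site sequence is shown above, had 8.58, 8.09 and 7.29 on the irradiated PTH arrays, 8.22, 8.39 and 8.16 on the irradiated vehicle arrays, 6.09, 6.88 and 6.18 on the nonirradiated PTH arrays, and 6.10, 6.62 and 5.93 on the nonirradiated vehicle arrays. Again no irradiated array reached down to a nonirradiated one, and irradiated PTH replicate 3 was the closest. The averaged rise of Cish was 1.82 (SE 0.215, limma adjusted p = 0.000315), or 3.54-fold. Podxl, a sialomucin of progenitor cells and vessels, had 8.78, 7.88 and 7.04 on the irradiated PTH arrays, 9.18, 8.86 and 8.31 on the irradiated vehicle arrays, 6.29, 6.62 and 6.36 on the nonirradiated PTH arrays, and 6.34, 6.49 and 6.56 on the nonirradiated vehicle arrays. Podxl was higher on all irradiated arrays but spread widely among those of PTH mice, and its averaged rise was 1.90 (SE 0.244, limma adjusted p = 0.000566). Socs3, a related inhibitor, rose by 0.88 (SE 0.127, limma adjusted p = 0.00128). The averaged calls of Socs2, Cish, Podxl and Socs3 were kept in all 21 alternatives. Their calls within PTH-treated mice were kept in all 22 alternatives by Socs2, in 18 by Cish, in 16 by Socs3 and in 11 by Podxl. The highest limma adjusted p was 0.101 for Cish, 0.142 for Socs3 and 0.176 for Podxl. Among the losses, Cish (limma adjusted p = 0.0859), Socs3 (0.0688) and Podxl (0.176) lost theirs without nonirradiated PTH replicate 1. Podxl also lost its call without any 1 nonirradiated vehicle array (0.0589 to 0.0694).

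Erfe encodes erythroferrone, a hormone that erythroblasts release on stimulation by erythropoietin and that lowers hepcidin. It had 8.70, 8.29 and 7.25 on the irradiated PTH arrays, 8.69, 8.59 and 8.26 on the irradiated vehicle arrays, 6.55, 7.16 and 6.39 on the nonirradiated PTH arrays, and 6.70, 7.41 and 6.67 on the nonirradiated vehicle arrays. Irradiated arrays were higher within each treatment, with irradiated PTH replicate 3 close to the nonirradiated arrays. The averaged rise was 1.49 (SE 0.240, limma adjusted p = 0.00259), and with vehicle it was 1.59 (SE 0.339, limma adjusted p = 0.0318). The vehicle call was lost with sex as a term (limma adjusted p = 0.0687) and in 6 of 12 fits that left out 1 array, those without nonirradiated vehicle replicate 1 or 3, nonirradiated PTH replicate 1, or any irradiated vehicle array, with limma adjusted p of 0.0527 to 0.129. The other genes past the averaged threshold are named after their values were seen, and are the kinase gene Pim1 at 1.35 (limma adjusted p = 0.00979), the survival gene Bcl2l1 at 0.53 (limma adjusted p = 0.0309), and the STAT gene Stat5b at -0.43 (limma adjusted p = 0.0387), the 1 that fell.

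**Figure D2:**
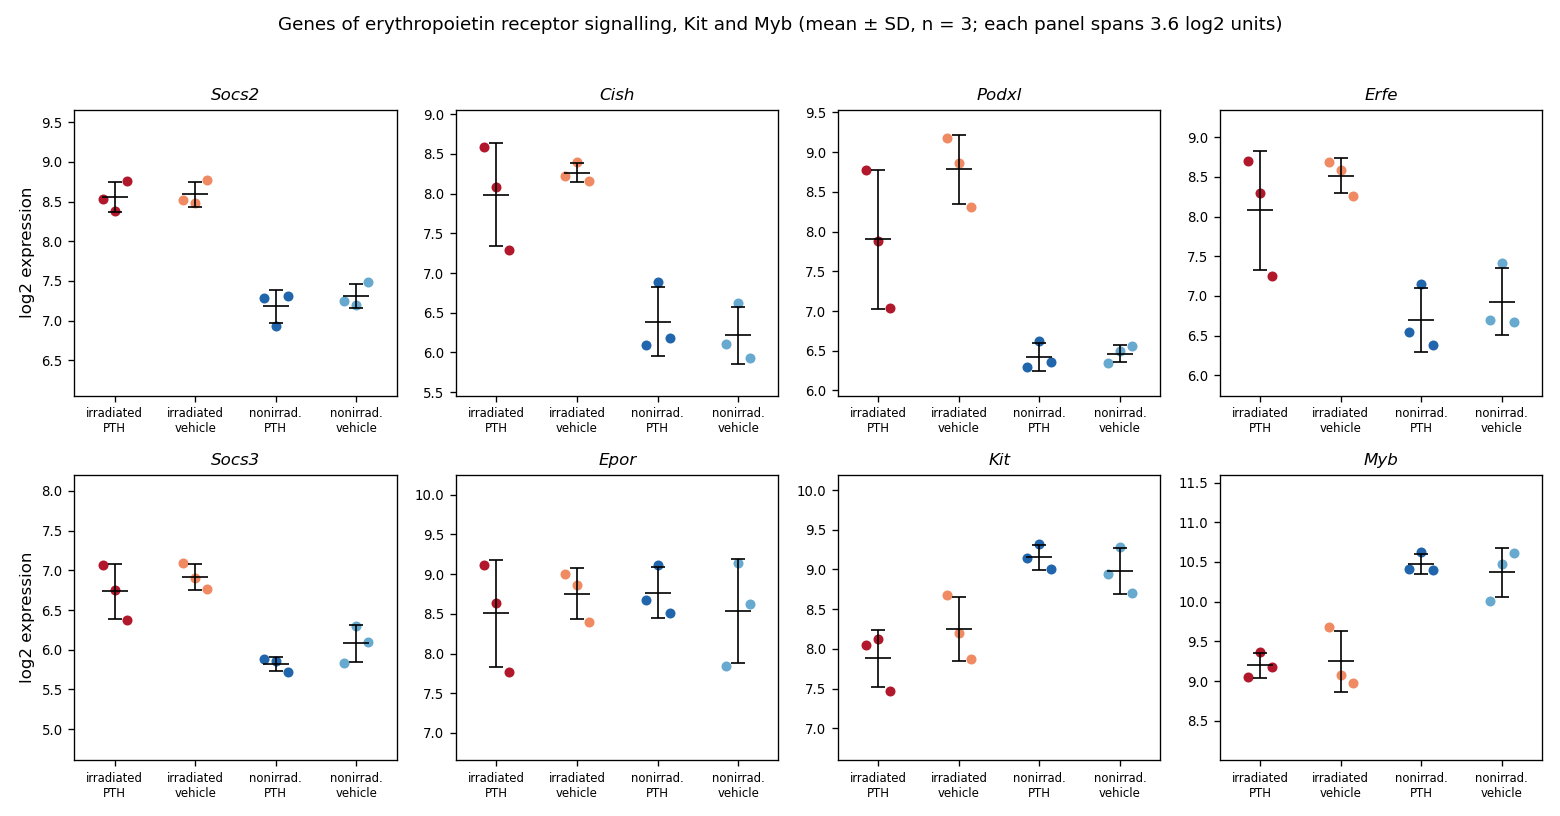
Log2 expression of 5 genes of erythropoietin receptor signalling, of the receptor Epor, and of Kit and Myb on each array (points, replicates 1 to 3 from left to right) with the group mean and SD (black, n = 3). Socs2, Cish, Podxl and Socs3 were higher and Kit and Myb lower on every irradiated array than on any nonirradiated array, while the Epor groups overlapped.

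Tfrc, the receptor that takes up transferrin-bound iron, had 12.54, 12.55 and 12.62 on the irradiated PTH arrays, 12.22, 12.55 and 12.37 on the irradiated vehicle arrays, 12.44, 12.11 and 12.21 on the nonirradiated PTH arrays, and 12.33, 12.52 and 12.41 on the nonirradiated vehicle arrays. The irradiated PTH arrays were the highest group and did not overlap the nonirradiated PTH arrays, whereas both vehicle groups overlapped. The irradiation difference was 0.32 with PTH (SE 0.127, limma adjusted p = 0.289) and -0.04 with vehicle (SE 0.127, limma adjusted p = 0.926). Non-overlap of irradiated and nonirradiated arrays was seen in 4 of 9 members with PTH, Tal1, Tfrc, Hemgn and Car1, against 19.8% of all genes. With vehicle it was seen in 3 of 9, Gata1, Tal1 and Car1, against 18.8% of all genes.

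Of 15 genes of iron uptake and storage, 2 rose and 0 fell averaged over both treatments, Hmox1 and Hfe, against 2.51% of all genes called higher. Hmox1, the haem-degrading oxygenase that is abundant in macrophages recycling red cells, had 11.38, 11.56 and 11.23 on the irradiated PTH arrays, 11.51, 11.48 and 11.07 on the irradiated vehicle arrays, 10.78, 10.84 and 10.85 on the nonirradiated PTH arrays, and 10.19, 10.74 and 10.34 on the nonirradiated vehicle arrays. All irradiated arrays were higher, and the averaged rise was 0.75 (SE 0.117, limma adjusted p = 0.00211). Hfe, a partner of the transferrin receptor in iron sensing, rose by 0.49, but its call was lost in 10 of 12 fits that left out 1 array, and it was kept without irradiated PTH replicate 3 or nonirradiated vehicle replicate 1. Of 11 markers of the macrophages of erythroblastic islands 1 rose, C1qc, and 0 fell. C1qc kept its call in 5 of 21 alternatives, and was lost in 10 of 12 fits that left out 1 array (kept when replicate 2 of either vehicle group was left out), with limma adjusted p up to 0.127 over the alternatives. The markers had mean levels of 8.29 to 8.95 on irradiated arrays and 8.18 to 8.62 on nonirradiated arrays, and their part in Hmox1 was not tested. The iron list counted 5 rising genes without irradiated PTH replicate 3, 6 with array weights and 1 to 6 over the 21 alternatives. Of 15 proliferation genes, which could move with Tfrc, 0 were called in the averaged comparison, and 0 had an unadjusted p under 0.05.

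Hemgn encodes hemogen, a nuclear protein of blood progenitors and a target of GATA1. It had 11.72, 11.48 and 11.47 on the irradiated PTH arrays, 11.38, 11.65 and 11.62 on the irradiated vehicle arrays, 11.31, 11.14 and 11.28 on the nonirradiated PTH arrays, and 11.48, 11.17 and 11.17 on the nonirradiated vehicle arrays. With PTH the irradiated arrays were all higher, and with vehicle nonirradiated replicate 1 overlapped them. The averaged difference was 0.29 (SE 0.0946, limma adjusted p = 0.105), which did not pass. It passed with array weights (0.35, limma adjusted p = 0.0134) and without nonirradiated vehicle replicate 1 (0.35, limma adjusted p = 0.0476). Of 20 measured late erythroid genes, 0 were called by limma averaged over both treatments and 5 had an unadjusted p under 0.05, of which 4 were higher and 1 lower. Their median difference was 0.18, against -0.01 over all genes. Without irradiated PTH replicate 3, or without both narrow-range arrays, 2 of the 20 rose. With array weights 6 rose, and the count was 0 to 6 over the 21 alternatives.

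Car1 was the member with the largest irradiation difference in each of the 3 irradiation comparisons. It had 11.24, 11.10 and 10.71 on the irradiated PTH arrays, 10.77, 11.47 and 10.90 on the irradiated vehicle arrays, 12.52, 12.05 and 12.29 on the nonirradiated PTH arrays, and 12.72, 12.16 and 12.01 on the nonirradiated vehicle arrays. The highest irradiated array lay below the lowest nonirradiated one, and PTH and vehicle arrays overlapped in each irradiation state. The group means were 11.02 ± 0.277, 11.05 ± 0.370, 12.29 ± 0.234 and 12.30 ± 0.373 in irradiated PTH, irradiated vehicle, nonirradiated PTH and nonirradiated vehicle mice (SD, n = 3 each). Car1 fell by 1.27 with PTH (SE 0.232, limma adjusted p = 0.0130), or 2.41-fold, and fell by 1.25 with vehicle (SE 0.232, limma adjusted p = 0.0145), or 2.38-fold. Averaged over both treatments it fell by 1.26 (SE 0.164, limma adjusted p = 0.000617). The averaged call was kept in all 21 alternatives with limma adjusted p up to 0.00282. The PTH call was lost without nonirradiated PTH replicate 1 (limma adjusted p = 0.0743) or 3 (limma adjusted p = 0.0551) and with sex as a term (limma adjusted p = 0.0820). The vehicle call was lost without irradiated vehicle replicate 1 (limma adjusted p = 0.0713) or 3 (limma adjusted p = 0.0712), and the difference stayed between -1.46 and -1.04 in every fit that left out 1 array.

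Car2, the highly active form found in red cells and also in osteoclasts, where it supplies acid for bone resorption, had 12.54, 12.38 and 11.60 on the irradiated PTH arrays, 12.25, 12.55 and 12.15 on the irradiated vehicle arrays, 12.19, 12.18 and 12.17 on the nonirradiated PTH arrays, and 12.20, 12.23 and 12.09 on the nonirradiated vehicle arrays. The nonirradiated arrays lay within a narrow band, and the irradiated arrays spread to both sides of it with irradiated PTH replicate 3 lowest. The averaged difference was 0.07, with a 95% interval of -0.25 to 0.39 and a limma adjusted p of 0.891. Of 13 osteoclast markers 0 were called by limma averaged over both treatments (0 to 1 over the 21 alternatives) and 1 had an unadjusted p under 0.05. Their mean level was 7.66 to 8.52 on irradiated arrays and 7.76 to 8.64 on nonirradiated arrays. The osteoclast enzymes Acp5 and Ctsk were not called.

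Car1 and Car2 lie in a cluster with Car13 and Car3, in the reference order Car13, Car1, Car3 and Car2. Averaged over both treatments Car1 fell, Car13 and Car3 rose and Car2 was not called. Car13, a cytosolic form, had 8.73, 8.43 and 8.24 on the irradiated PTH arrays, 8.80, 8.93 and 9.10 on the irradiated vehicle arrays, 7.55, 7.40 and 7.65 on the nonirradiated PTH arrays, and 7.68, 7.55 and 7.51 on the nonirradiated vehicle arrays. Car13 was higher on every irradiated array, with an averaged rise of 1.15 (SE 0.102, limma adjusted p = 3.70e-05). Car3, the form of fat and muscle cells, had 11.52, 11.14 and 10.38 on the irradiated PTH arrays, 12.12, 11.99 and 11.78 on the irradiated vehicle arrays, 10.74, 10.10 and 10.29 on the nonirradiated PTH arrays, and 10.45, 10.34 and 10.46 on the nonirradiated vehicle arrays. Car3 overlapped between the PTH groups and not between the vehicle groups, and its averaged rise was 1.09 (SE 0.177, limma adjusted p = 0.00263).

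The difference between Car1 and each neighbour within an array is given as a description, with no test, since the separate values of these genes fix its direction. Car1 minus Car2 was -1.48 to -0.90 on irradiated arrays and -0.13 to 0.52 on nonirradiated arrays. Car1 minus Car3 was -1.35 to 0.33 on irradiated arrays and 1.55 to 2.27 on nonirradiated arrays. Car1 minus Car13 was 1.798 to 2.68 on irradiated arrays and 4.49 to 5.04 on nonirradiated arrays.

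Of the 14 other carbonic anhydrase genes, 4 rose and 0 fell averaged over both treatments, against 2.51% of all genes called higher. Their median was 0.04, against -0.01 over all genes. The other 2 that rose were Car4 and Car5b. Car4, a membrane-anchored form, had 6.71, 6.40 and 6.92 on the irradiated PTH arrays, 6.42, 6.57 and 6.77 on the irradiated vehicle arrays, 4.92, 5.09 and 4.99 on the nonirradiated PTH arrays, and 5.47, 5.50 and 4.99 on the nonirradiated vehicle arrays. Car4 was higher on every irradiated array, with an averaged rise of 1.47 (SE 0.121, limma adjusted p = 2.24e-05). Car5b, a mitochondrial form, had 6.45, 5.92 and 6.69 on the irradiated PTH arrays, 7.18, 7.20 and 7.62 on the irradiated vehicle arrays, 4.97, 4.90 and 5.16 on the nonirradiated PTH arrays, and 5.93, 5.17 and 4.90 on the nonirradiated vehicle arrays. Irradiated arrays were higher within each treatment, and the averaged rise was 1.67 (SE 0.182, limma adjusted p = 0.000179). These calls were also made without both narrow-range arrays and with sex as a term, as 4 rising and 0 falling. For PTH in irradiated mice, 0 of the 14 were called by limma. At an unadjusted limma p under 0.05, 3 were lower with PTH and 0 higher, against 3.81% of all genes in either direction. Car3, Car13 and Car5b were each lower on every irradiated PTH array than on any irradiated vehicle array.

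**Figure D3:**
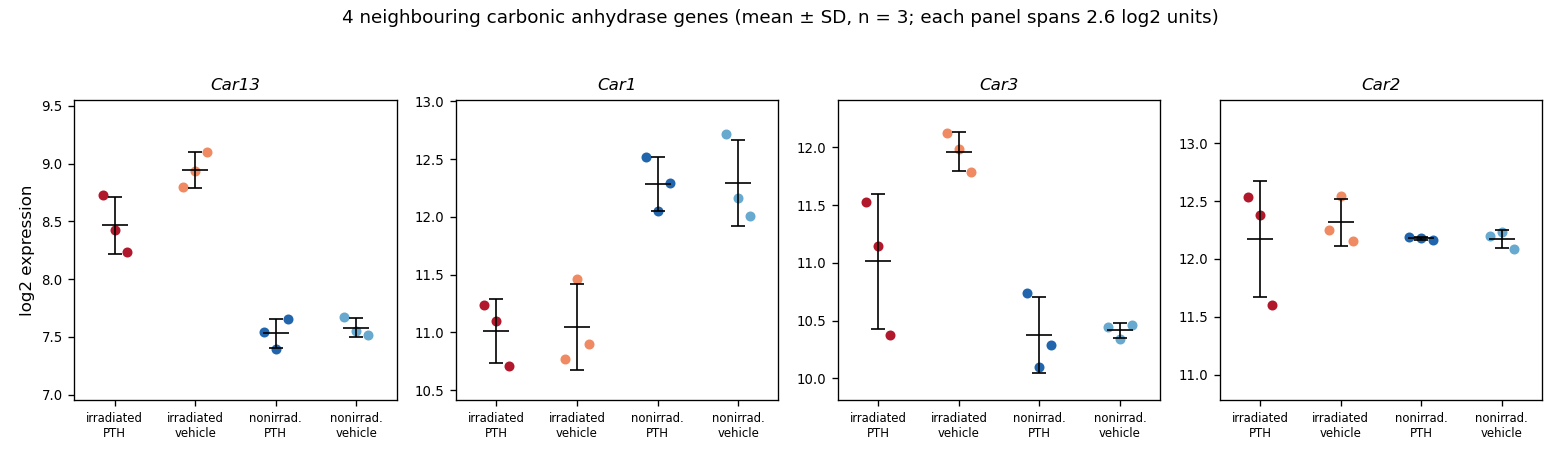
Log2 expression of Car13, Car1, Car3 and Car2, in their reference order, on each array (points, replicates 1 to 3 from left to right) with the group mean and SD (black, n = 3). Car1 was lower and Car13 higher on every irradiated array than on any nonirradiated array, and the Car2 groups overlapped.

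**Figure D4:**
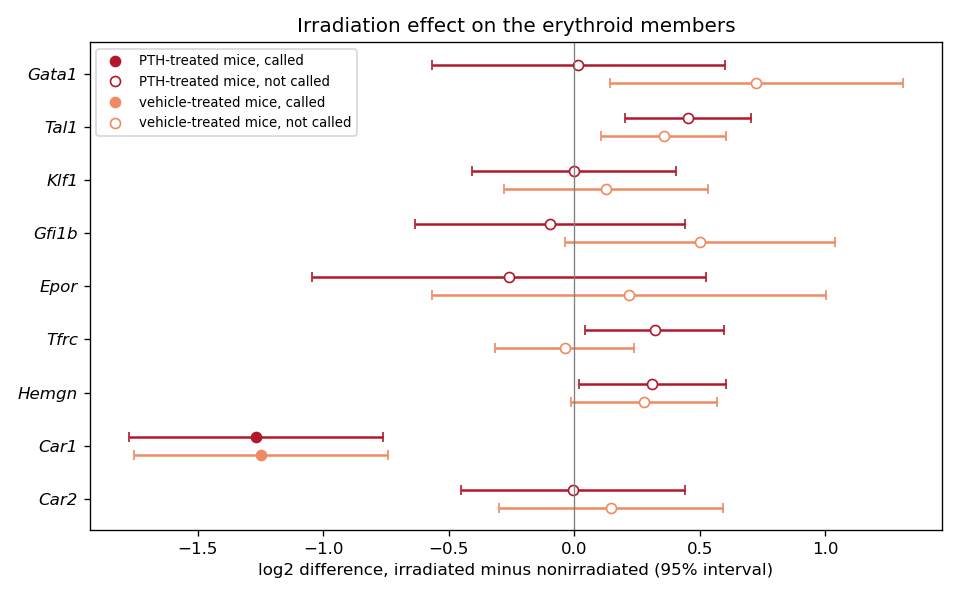
Log2 difference of irradiated minus nonirradiated mice for each member, within PTH-treated and vehicle-treated mice, with 95% intervals. Filled points mark calls at adjusted p under 0.05, which Car1 alone reached in each treatment.

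PTH changed none of the members past the test. Irradiated PTH against irradiated vehicle mice gave 0 of 9 members called and 0 with an unadjusted p under 0.05, against 0% of all genes called and 3.81% with an unadjusted p under 0.05. The differences ran from Gfi1b at -0.40 (SE 0.247) to Tfrc at 0.19 (SE 0.127), both with a limma adjusted p of 0.844. In the irradiated groups alone, with the replicate number as a block, 1 gene was called and 0 of 9 members. Nonirradiated PTH against nonirradiated vehicle mice likewise gave 0 of 9 called and 0 with an unadjusted p under 0.05, against 0% and 1.79% of all genes. The differences ran from Tfrc at -0.17 (SE 0.127) to Gata1 at 0.39 (SE 0.268). The intervals remained wide: for Epor they were -1.03 to 0.54 after irradiation and -0.55 to 1.02 without it. For Car1 the intervals were -0.54 to 0.48 after irradiation and -0.52 to 0.50 without it. After irradiation, a PTH difference as large as the fall with irradiation lay outside the interval. Without irradiation, PTH and sex cannot be told apart, so the interval there is for both together. For Tal1 the intervals were -0.15 to 0.35 after irradiation and -0.25 to 0.25 without it.

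The interaction tested whether the irradiation difference depended on PTH. It includes the nonirradiated groups, where PTH and sex cannot be told apart, so it cannot separate their parts. It was called for 0 of 9 members and 0 had an unadjusted p under 0.05, against 0% of all genes called by limma and 5.49% with an unadjusted p under 0.05. The estimates ran from Gata1 at -0.71 (SE 0.379) to Tfrc at 0.36 (SE 0.180), both with a limma adjusted p of 0.732. For Car1 the 95% interval was -0.74 to 0.70 and for Tal1 -0.26 to 0.45. None of the genes of the 15 lists was called by limma in a PTH or interaction comparison. That includes the 4 sex markers, of which 1 was higher and 3 lower with PTH in nonirradiated mice at an unadjusted limma p under 0.05. Xist there was 11.19 to 11.69 on PTH arrays and 5.48 to 5.75 on vehicle arrays. The lack of a call therefore does not show the lack of a difference.

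The members varied together in subsets, described here by Pearson correlations over the 12 arrays, which share their 4 groups and their scaling. Gata1 followed Gfi1b (0.92) and Epor (0.82), and Gfi1b followed Epor (0.83). With group means removed these were 0.93, 0.96 and 0.89, and without both narrow-range arrays 0.91, 0.95 and 0.87. Tal1 and Car1 correlated at -0.88 over the arrays and at -0.22 with group means removed. Hemgn and Car1 correlated at -0.52 over the arrays and at 0.84 with group means removed, and Tal1 and Hemgn at 0.73 and 0.07. The median over the 36 member pairs was 0.18.

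Among all other genes, the 2 with values most like each member over the 12 arrays were taken. For Car1 they were Edem3 and Sh2d4a (0.96 each), and for Tal1 Zfp352 (0.96) and Car4 (0.95), the carbonic anhydrase described above. For Gata1 they were Kcnn4 (0.97), a calcium-activated potassium channel of red cells, and Sec23b (0.96), a coat protein of the secretory pathway that is mutated in a human anaemia of red cell formation. For Gfi1b they were Psmf1 (0.98) and Mrrf (0.96), for Epor Ip6k1 and Samd4b (0.97 each), and for Klf1 Rgs9bp (0.93) and Acp4 (0.91). For Hemgn they were Scai (0.98) and Rragd (0.97), for Car2 Pip5k1b (0.98) and Afg3l2 (0.97), and for Tfrc Diaph3 and Gja4 (0.86 each). These are the highest of 19937 correlations for each member and carry no test.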

How the data were processed

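The values the authors deposited are on a log2 scale, as their range shows. The submitters' processing notes name RMA (background correction, quantile normalization and probe summary), affy and limma, without versions. No source used here says whether all arrays were normalized together or which genome build the array follows. Per the labels' protocols, 100 ng of total RNA was amplified into biotin-labelled cDNA.

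Of 35556 rows, 21789 had 1 gene symbol, 1621 had several and 12146 were not listed in the annotation, and 19938 genes resulted after the row of highest mean was taken where a gene had more than 1 (999 genes). Symbols were updated through RefSeq, which 91 rows did not match. The members and lists (15 lists, 190 of 217 entries measured) were chosen with earlier results of these data known, and the lists' results are printed once each. Within lists, the genes past the threshold with the smallest p were picked for naming, at most 4 per list and comparison. Not all of those picked are printed. All 9 members and a few fixed genes were named besides.

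A limma 3.58.1 model (R 4.3.3) of 4 group means was fitted to the 12 arrays, with 8 residual degrees of freedom and empirical Bayes moderation. On 5 simulations of irradiation with vehicle, with 200 of 19938 genes changed, the fit called 13.1% of genes changed by a log2 of 0.5, 67.5% of those changed by 1 and 94.6% of those changed by 2, and 7.98% of its calls were false. Alternatives were the variance model, array weights, scaling, filtering, row choice, replicate number as a block, a sex term, narrow-range arrays left out, single arrays left out and only the groups compared. List counts under these alternatives, and a replicate block fitted to only the irradiated arrays, were chosen after seeing the data. No label states that a shared replicate number marks paired arrays. Correlations of deviations from group means were 0.14 to 0.57 for the 3 same-number pairs of irradiated PTH and irradiated vehicle arrays. These pairs also matched in sex pattern, so the block was applied there. Among different-number pairs of these groups, irradiated vehicle replicate 1 and irradiated PTH replicate 2 had 0.40. Irradiated vehicle replicate 2 and irradiated PTH replicate 1 had 0.18, and the rest -0.51 to -0.19. The replicate number therefore did not always pick out the most alike arrays. For the other combinations of groups the lowest same-number correlation was -0.65 to -0.04, under the limit of 0.1 for pairing. Promoter letters were searched in RefSeq start windows of GRCm38.p6.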

Additional observations from a re-analysis of the deposited data

How the results depend on the processing

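With array weights, irradiation called 1149 genes with vehicle, 1148 with PTH and 2517 averaged, and 2 members with PTH and 4 averaged. With PTH, a sex term left 200 genes and 0 members, and the fit of only the groups compared left 232 genes (that fit called 4 genes for PTH in nonirradiated mice, and cannot be made for the averaged or interaction comparison). Centring on housekeeping genes, which moved the median of all genes by -0.17 with vehicle and 0.12 with PTH, left 1 member averaged. Leaving out 1 array at a time gave 211 to 762 genes with vehicle and 225 to 531 with PTH, and 0 to 1 members in each. For PTH in irradiated mice, the replicate block in the irradiated groups alone called 1 gene. Over all 12 arrays the replicate block gave 500, 672 and 1407 genes and the same 1, 1 and 2 members called with vehicle, PTH and averaged.

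Uncalled members changed sign. With vehicle, Klf1 was -0.012 with housekeeping centring, and Tfrc 0.030 with array weights and 0.0086 with sex. With PTH, Klf1 was 0.12 with weights, 0.11 with housekeeping centring, 0.026 with quantile normalization repeated, 0.23 with sex and 0.059 without both narrow-range arrays, Gfi1b 0.16, 0.015, 0.20 and 0.14, and Car2 0.22, 0.10, 0.14 and 0.28, with weights, housekeeping centring, sex and without narrow-range arrays. Epor was 0.11, 0.17 and 0.11 with PTH and 0.084, 0.084 and 0.18 averaged with weights, sex and without narrow-range arrays. Gata1 under PTH in nonirradiated mice was -0.022 with sex. Leaving out 1 array gave, with vehicle, Klf1 -0.022 to 0.26, Epor -0.13 to 0.52 and Tfrc -0.13 to 0.041. With PTH it gave Gata1 -0.24 to 0.30, Klf1 -0.14 to 0.13, Gfi1b -0.39 to 0.14, Epor -0.56 to 0.11 and Car2 -0.19 to 0.28. Averaged, it gave Klf1 -0.012 to 0.13, Epor -0.19 to 0.16 and Car2 -0.020 to 0.21. The causes were not tested. Signal over background on the arrays was not analysed here.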

Other observations

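Of 12 neutrophil markers, 0 were called by limma for irradiation averaged over both treatments (0 to 3 over the 21 alternatives), and 4 had an unadjusted p under 0.05, all lower. Their mean level was 10.74 to 11.31 on irradiated arrays and 11.05 to 11.62 on nonirradiated arrays. Of 13 housekeeping genes 0 were called by limma and 2 had an unadjusted p under 0.05, and of 4 sex markers 0 were called and 0 had an unadjusted p under 0.05.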
